A study of Homo sapiens with 54 samples.

Results

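The transcripts of 10 BCL2 family genes were followed in OCI-Ly1 cells, an established human B cell lymphoma line that carries the translocation t(14;18) placing BCL2 next to the immunoglobulin heavy chain locus. The members were taken by gene symbol (BCL2, BCL2L1, MCL1, BCL2A1, BAX, BAK1, BCL2L11, BID, BBC3, and PMAIP1), and all 10 were found among the 31835 genes of the count table. The cells stably expressed 3xFlag-tagged STAT6 cDNA driven by a CMV promoter, either wild-type (STAT6 WT) or with 1 of the DNA binding domain changes D419G, D419N, or N421K (together STAT6 MUT). Every group received a pulse of IL-4 (20 min, 10 ng/ml), after which the cells were washed and cultured further without the cytokine until 2, 4, or 8 h. There were 54 libraries, with 9 of STAT6 WT and 3 of each mutant at every time point. Endogenous STAT6, which in OCI-Ly1 carries a DNA binding domain variant of its own, remained in all groups, no library of unstimulated cells or of an empty vector was analysed here, and no source used here gives the number of independent transductions per construct. A difference between transduced populations and a difference between genotypes therefore cannot be told apart. The replicates are labelled as biological, but which libraries share a culture is not stated, so that p-values measure only the spread between these libraries, which may be technical in part. In bulk RNA, fewer cells that express a gene and less RNA of it per cell cannot be told apart.

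The BCL2 family sets the threshold of mitochondrial apoptosis. BCL2, BCL2L1 (BCL-XL), MCL1, and BCL2A1 (BFL1) are pro-survival proteins that bind and hold back the pore-forming effectors BAX and BAK1 and the BH3-only proteins. The BH3-only proteins BCL2L11 (BIM), BID, BBC3 (PUMA), and PMAIP1 (NOXA) promote cell death, and each has its own partners among the pro-survival proteins: NOXA binds mainly MCL1 and BFL1, whereas BIM and PUMA bind all of them. Germinal center B cells normally keep BCL2 low, and its forced expression from the translocated allele is a hallmark of follicular lymphoma.

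Libraries were made with prime-seq, in which the 3′ end of each mRNA is sequenced and every captured molecule carries a unique molecular identifier (UMI). Libraries held 161518 to 2978715 UMIs (median 885258.5), and 8 of them, 6 of STAT6 MUT and 2 of STAT6 WT, lay under 0.5 of the median. All 7 B cell markers were found in all 54 libraries, with a summed level of 2910 to 3736 CPM in STAT6 WT and 2906 to 3693 in STAT6 MUT. Of 4 T cell markers, CD3G was found, at 0 to 3.11 CPM in STAT6 WT and 0 in STAT6 MUT, and 3 of 4 myeloid markers were found, with a sum of at most 2.56 CPM. CD3D, CD3E, CD2, and CSF1R were looked up by symbol and not found among the genes of the count table. Of the plasma cell markers, JCHAIN was high in both genotypes, whereas SDC1 and PRDM1 were near 0. Libraries of different time points lay in different plate rows, so that time and plate row cannot be told apart.

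BCL2 was the most abundant member, with a mean of 407 CPM over the 54 libraries (range 239 to 538; CPM are UMI counts relative to library size, scaled with TMM), which placed it at rank 350 of 31835 genes. As each captured molecule gives 1 UMI at its 3′ end, levels do not scale with transcript length. MCL1 followed with 180 CPM, BCL2L11 with 149, PMAIP1 with 113, BID with 59.1, BAX with 23.9, and BAK1 with 14.3. The least abundant members were BBC3 with 8.31 CPM, BCL2A1 with 8.10, and BCL2L1 with 7.24. This order held for most neighbours within libraries. BCL2 exceeded MCL1 in 53 of 54 libraries, BCL2L11 exceeded PMAIP1 in 51, and PMAIP1 exceeded BID in all 54. MCL1 exceeded BCL2L11 in only 39 libraries. The last 3 were not separated, with BBC3 above BCL2A1 in 18 libraries and equal in 7. BCL2 alone supplied a median of 42.8% of all UMIs of the 10 genes in a library, with a range of 23.9% to 51.3%, whereas BCL2A1 and BCL2L1 supplied a median of 0.668% and 0.664%.

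Depth differed sharply between the members. A library held a median of 344.5 UMIs of BCL2, 149 of MCL1, 128.5 of BCL2L11, 99.5 of PMAIP1, and 51.5 of BID. It held a median of only 19.5 UMIs of BAX, 12.5 of BAK1, 6 of BBC3, 6 of BCL2A1, and 4 of BCL2L1, and small changes of these 5 genes were not detectable at this depth. The 3′ ends of BCL2L11, MCL1, and BAK1 are overlapped by other genes. MIR4435-2HG, on the opposite strand at the end of BCL2L11, had 1021 UMIs over all libraries against 7932 of BCL2L11, and the genes at the end of MCL1, ADAMTSL4 and ADAMTSL4-AS1, had 7 and 17 UMIs against 9346. At the end of BAK1, GGNBP1 on the opposite strand had 1 UMI against 762. Whether counting used the strand is not stated by the sources used here, so that reads of such pairs may have been shared. On GRCh38, BCL2 lies at chr18:63123346-63320128 (minus strand), PMAIP1 at chr18:59899996-59904305 (plus), BAX at chr19:48954815-48961798 (plus), and BCL2L11 at chr2:111119378-111168444 (plus).

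As STAT6 binds DNA at palindromes of TTC and GAA, the promoters of the members were searched for TTCNNNNGAA, the spacing preferred by STAT6, and TTCNNNGAA, the spacing of other STATs, which read the same on both strands. The motifs could share bases, but no window of a member held both. RefSeq windows of 300 bases (GRCh38.p14) were found for 9 of 10 members (not MCL1), 14 windows in all. The STAT6 spacing was in none of them, beside 6.44% of 35116 windows of all genes. The 3-base spacing was in 1, that of BCL2A1, beside 7.66% of all windows. The match at BCL2A1 starts 168 bases before the RefSeq start (chr15:79971356-79971364, minus strand). The 200 bases before the start of BCL2A1, the 1 member with a match, follow beside those of PMAIP1, the called member with the largest rise in STAT6 MUT, as upstream sequence on GRCh38.p14, 5′ to 3′ on the strand of the gene, with the match in capitals (BCL2A1 at chr15:79971197-79971396, minus strand; PMAIP1 at chr18:59899796-59899995, plus strand).
BCL2A1: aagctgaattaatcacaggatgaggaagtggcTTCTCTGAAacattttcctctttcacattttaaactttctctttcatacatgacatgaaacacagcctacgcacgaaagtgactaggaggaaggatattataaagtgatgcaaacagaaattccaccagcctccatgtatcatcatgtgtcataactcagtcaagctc
PMAIP1: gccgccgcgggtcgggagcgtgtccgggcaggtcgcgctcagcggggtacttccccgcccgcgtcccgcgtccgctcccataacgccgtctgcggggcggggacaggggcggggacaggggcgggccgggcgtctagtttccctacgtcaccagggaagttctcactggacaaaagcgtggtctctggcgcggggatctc
The BCL2A1 stretch is AT-rich, with 39.0% G and C and 2 CpG dinucleotides, whereas that of PMAIP1 has 72.5% G and C and 27 CpG (median over all windows 9). A match is a description of the letters and no evidence of binding, and windows without one say nothing about STAT6 at more distant sites.

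**Figure D1:**
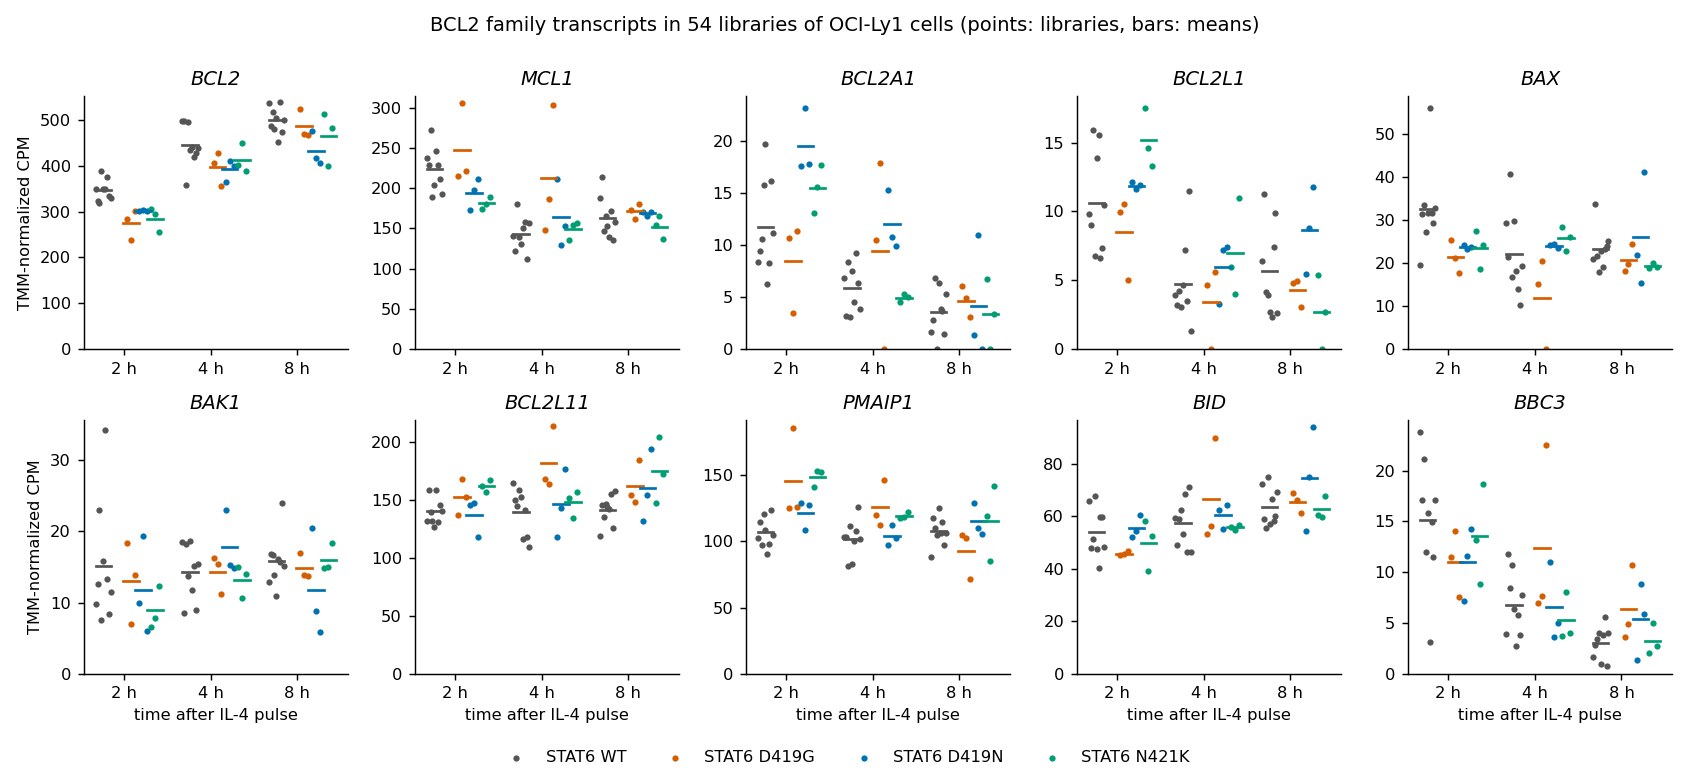
TMM-normalized CPM of the 10 members in each of the 54 libraries (points), by time after the IL-4 pulse and STAT6 genotype, with the mean of each line as a short horizontal line and the axis of each panel starting at 0. At 2 h all 9 STAT6 MUT libraries lay below all 9 STAT6 WT libraries for BCL2, and 8 of 9 lay above all STAT6 WT libraries for PMAIP1.

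The first question was which members differ between STAT6 MUT and STAT6 WT. Across time points, BCL2 was lower in STAT6 MUT, and the BH3-only genes PMAIP1 and BCL2L11 were higher. These were 3 called members of the 8 that passed the filter on low counts, against 13.4% of all 9261 genes tested (edgeR's quasi-likelihood test, adjusted p under 0.05). Of all genes, 6.74% were higher and 6.62% lower. BCL2A1 and BCL2L1 did not pass that filter. At 2 h, 3 of all 10 members were called, BCL2 and BAX lower and PMAIP1 higher, against 8.59% of genes (3.92% higher and 4.67% lower). None of 7 members tested was called at 4 h, where 3.97% of genes were called, nor at 8 h, where 1.44% were called. DESeq2 and limma-voom also called 0 members at 4 h and at 8 h. At an unadjusted p under 0.05, 2 members differed at 4 h (BCL2 and PMAIP1) and 1 at 8 h (BCL2L11). The median log2 fold change of the members tested was -0.02 across time points, -0.12 at 2 h, 0.085 at 4 h, and 0.032 at 8 h, beside medians of 0.0012, 0.0075, 0.0017, and 0.0049 over all genes. Whether the difference itself changed between time points was tested as an interaction of genotype and time, and 0 of 9 members were called by edgeR, DESeq2, or limma-voom, against 0.957% of genes. Before adjustment, 1 member was under 0.05 in this interaction, MCL1 (edgeR adjusted p = 0.388). A larger effect at 2 h than at 8 h is therefore not shown for any member.

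**Figure D2:**
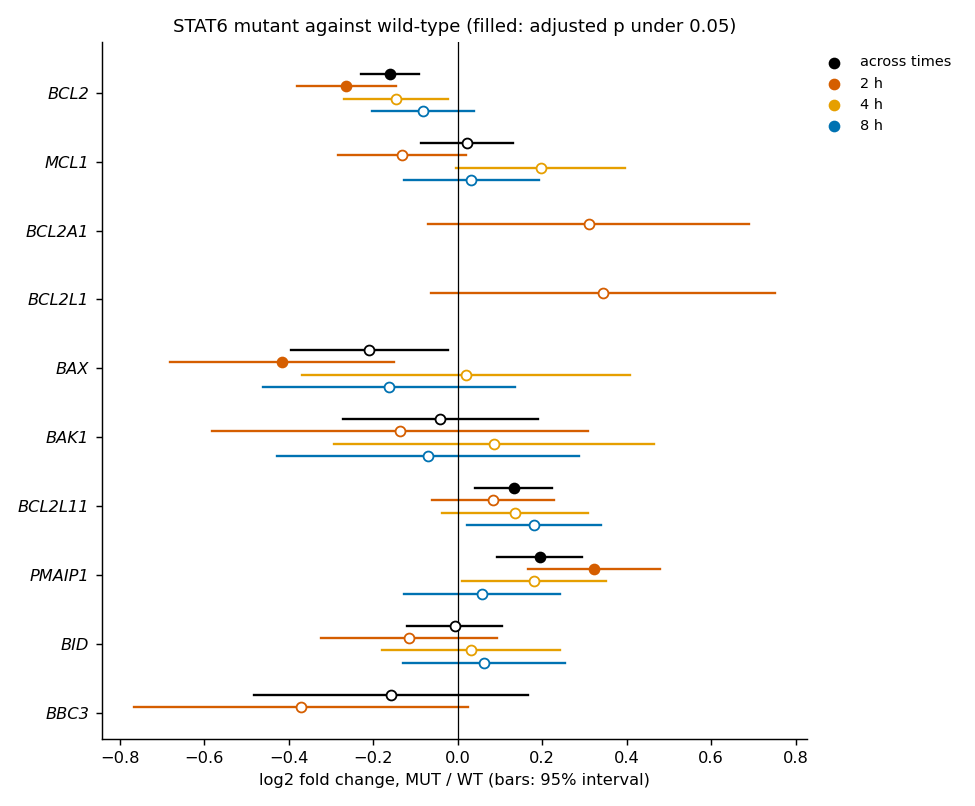
Log2 fold change of STAT6 MUT over STAT6 WT for each member (points) with its 95% interval (lines), across time points and at 2, 4, and 8 h, with filled points at an edgeR adjusted p under 0.05. Members without a point did not pass the filter on low counts, and the filled points are BCL2 and PMAIP1 (across time points and at 2 h), BCL2L11 (across time points), and BAX (at 2 h).

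Among the pro-survival genes, BCL2 was the 1 called between genotypes. At 2 h, its lowest, median, and highest levels were 318, 349, and 389 CPM in STAT6 WT and 239, 301, and 305 CPM in STAT6 MUT. The highest STAT6 MUT library was below the lowest STAT6 WT library, a separation found in 0.682% of genes at 2 h. BCL2 thus differed by a log2 fold change of -0.26 ± 0.059 (SE; 0.833-fold; 95% interval -0.38 to -0.15; edgeR adjusted p = 0.00146). In the exact permutation test, two-sided, the difference of mean log2 CPM was -0.27 with p = 4.11e-05, which is the smallest p that 9 libraries against 9 can give, in a family of 10 members at 3 time points. The difference was also seen within plate rows, with mean log2 CPM lower by 0.25 in row A (-0.25; 6 libraries of each genotype) and by 0.32 in row B (-0.32; 3 of each). At 4 h, BCL2 lay between 358 and 497 CPM in STAT6 WT (median 439) and between 355 and 450 in STAT6 MUT (median 402). The groups overlapped, as they did for all members at 4 h and 8 h (0.349% and 0.125% of genes did not overlap), and the log2 fold change was -0.15 ± 0.061 (edgeR adjusted p = 0.219). At 8 h, the levels were 451 to 538 CPM (median 501) and 400 to 525 CPM (median 470), with a log2 fold change of -0.08 ± 0.060 (edgeR adjusted p = 0.585). Across time points, BCL2 was lower by 0.16 on the log2 scale (-0.16 ± 0.034, 0.894-fold, edgeR adjusted p = 3.19e-04). BCL2 made up 39.5% of the family's UMIs on average in STAT6 MUT against 44.02% in STAT6 WT. This share comes from the same counts and is no separate evidence.

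MCL1, a short-lived pro-survival protein on which many B cells depend, did not pass the test between genotypes. Its level at 2 h was 189 to 272 CPM in STAT6 WT (median 229) and 173 to 306 in STAT6 MUT (median 198), and the groups overlapped widely. MCL1 differed by a log2 fold change of -0.13 ± 0.076 at 2 h (edgeR adjusted p = 0.317), 0.20 ± 0.10 at 4 h (0.345), and 0.032 ± 0.080 at 8 h (0.916). Across time points, the value was 0.022 ± 0.055 (95% interval -0.087 to 0.13), which pools time points and lines of unlike sign. By line, it was 0.18 ± 0.076 in D419G (edgeR adjusted p = 0.167), 0.018 ± 0.077 in D419N (0.962), and -0.11 ± 0.071 in N421K (0.320). The highest values at 2 h and 4 h, 306 and 304 CPM, came from D419G libraries of 299578 and 175878 UMIs, both among the 8 shallow libraries. Over all 54 libraries, Spearman's r of MCL1 log2 CPM with the UMI total of the library was -0.35. The part of depth in these values was not tested. Without the D419G line, MCL1 at 2 h was lower in STAT6 MUT by 0.24 on the log2 scale (-0.24, edgeR adjusted p = 0.0444).

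BCL2A1, an NF-kB target in B cells, had 3.51 to 23.3 CPM in STAT6 MUT at 2 h (median 15.6) and 6.23 to 19.8 CPM in STAT6 WT (median 10.6). This gave a log2 fold change of 0.31 ± 0.19 (95% interval -0.070 to 0.69, edgeR adjusted p = 0.352). BCL2L1 was similar in depth and had a log2 fold change of 0.34 ± 0.20 at 2 h (95% interval -0.064 to 0.75, edgeR adjusted p = 0.332), from levels of 5.04 to 17.5 CPM in STAT6 MUT (median 11.9) and 6.63 to 15.9 CPM in STAT6 WT (median 9.81). With no filter on low counts, the log2 fold changes across time points were 0.33 ± 0.15 for BCL2A1 (adjusted p = 0.304) and 0.22 ± 0.17 for BCL2L1 (adjusted p = 0.577).

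Of the effector genes, BAX was lower in STAT6 MUT at 2 h. Its levels were 19.6 to 56.0 CPM in STAT6 WT (median 31.5) and 17.6 to 27.4 CPM in STAT6 MUT (median 23.8), with 2 STAT6 MUT libraries below all of STAT6 WT. BAX fell by 0.42 on the log2 scale (-0.42 ± 0.13; 0.749-fold; 95% interval -0.68 to -0.15; edgeR adjusted p = 0.0362), and the exact permutation test, two-sided, gave p = 0.00276. The call is close to the threshold and was lost under 12 of 21 alternatives. Among these were DESeq2 (adjusted p = 0.0750), limma-voom (0.0531), and the fits without STAT6 WT replicate 6 (edgeR adjusted p = 0.0592), the library with 56.0 CPM, without STAT6 WT replicate 9 (0.0846), and without replicates 2 or 3 of every line (0.122 and 0.179). At 4 h and 8 h, the log2 fold changes of BAX were 0.019 ± 0.19 and -0.16 ± 0.15. The value at 4 h has no settled sign. Mean levels there were 22.1 CPM in STAT6 WT and 20.5 CPM in STAT6 MUT, where D419G replicate 3 had 0 UMIs of BAX, and the sign turned under 10 of 21 alternatives. BAK1, the other effector, had wide intervals around small differences, with a log2 fold change of -0.14 ± 0.22 at 2 h and -0.04 ± 0.12 across time points (95% interval -0.27 to 0.19).

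Among the BH3-only genes, PMAIP1, a p53 and stress target whose product neutralizes MCL1, was higher in STAT6 MUT. At 2 h, it lay between 90.3 and 124 CPM in STAT6 WT (median 105) and between 109 and 186 in STAT6 MUT (median 129). Of the 9 STAT6 MUT libraries, 8 exceeded the highest STAT6 WT library. PMAIP1 thus differed by a log2 fold change of 0.32 ± 0.078 (1.25-fold; 95% interval 0.17 to 0.48; edgeR adjusted p = 0.00367), and the exact permutation test, two-sided, gave p = 6.99e-04. Within plate rows, mean log2 CPM was higher by 0.41 in row A and by 0.27 in row B. At 4 h, the levels were 81.4 to 126 CPM (median 103) in STAT6 WT and 97.7 to 146 CPM (median 118) in STAT6 MUT, with a log2 fold change of 0.18 ± 0.085 (edgeR adjusted p = 0.297). At 8 h, the medians were 106 CPM in both, with 88.4 to 125 CPM in STAT6 WT and 71.8 to 142 in STAT6 MUT, and the log2 fold change was 0.057 ± 0.092. Across time points, it was 0.19 ± 0.051 (edgeR adjusted p = 0.00405). Without the N421K line, neither call remained, with log2 fold changes of 0.12 across time points (edgeR adjusted p = 0.266) and 0.24 at 2 h (edgeR adjusted p = 0.143).

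BCL2L11, the BIM gene, differed by a small amount. At 8 h, it lay between 119 and 158 CPM in STAT6 WT (median 144) and between 132 and 205 CPM in STAT6 MUT (median 155), with 4 STAT6 MUT libraries above all of STAT6 WT. Its log2 fold changes were 0.083 ± 0.072 (2 h), 0.13 ± 0.086 (4 h), and 0.18 ± 0.078 (8 h, edgeR adjusted p = 0.288), and 0.13 ± 0.046 across time points (1.10-fold; edgeR adjusted p = 0.0408). The last value lies close to the threshold and was no longer called under 15 of 23 alternatives (adjusted p from 0.00592 to 0.411 over all 23), with a log2 fold change of 0.078 to 0.18. BID, which links death receptors to the mitochondria, differed by -0.0075 ± 0.057 across time points (95% interval -0.12 to 0.11). BBC3, the PUMA gene and a p53 target, had 3.11 to 23.8 CPM in STAT6 WT at 2 h (median 15.8) and 7.16 to 18.7 CPM in STAT6 MUT (median 11.6), with a log2 fold change of -0.37 ± 0.20 (95% interval -0.77 to 0.025, edgeR adjusted p = 0.266).

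Each mutant line was next compared with STAT6 WT in 1 model of all 54 libraries, in which the 3 comparisons share the STAT6 WT libraries. BCL2 was called lower in D419N (log2 fold change -0.18 ± 0.050, edgeR adjusted p = 0.0240) and in N421K (-0.15 ± 0.048, 0.0215), and D419G had a value of -0.15 ± 0.051 that did not pass (0.0701). The call in D419N was lost without replicate 1 or replicate 2 of every line (0.170 and 0.108), and that in N421K without replicate 3 (0.162). At 2 h, BCL2 measured 239, 284, and 301 CPM in the D419G libraries, 301, 301, and 302 in those of D419N, and 256, 294, and 305 in those of N421K, each below the 318 CPM of the lowest STAT6 WT library. PMAIP1 was called in N421K, with a log2 fold change of 0.31 ± 0.064 (1.24-fold; edgeR adjusted p = 1.69e-04), beside 0.11 ± 0.074 in D419G (0.451) and 0.12 ± 0.072 in D419N (0.491). Its levels at 2 h were 141, 152, and 153 CPM in N421K, 125, 126, and 186 in D419G, and 109, 127, and 129 in D419N. BCL2L11 was called in N421K as well, with 0.17 ± 0.060 (edgeR adjusted p = 0.0379), a call lost under 10 of 19 alternatives, and had log2 fold changes of 0.18 ± 0.067 in D419G (0.103) and 0.026 ± 0.067 in D419N (0.930). BCL2A1 in D419N had a log2 fold change of 0.66 ± 0.21 that did not pass (edgeR adjusted p = 0.0721) and was called by DESeq2 (adjusted p = 0.0481), with adjusted p from 0.0481 to 0.423 over 18 alternatives.

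In all, edgeR called 0 of 10 members in D419G, 1 in D419N, and 3 in N421K, where 5.38%, 2.75%, and 13.7% of all 9706 genes were called. For D419G, 4 members had an unadjusted p under 0.05 (BAX, MCL1, BCL2L11, and BCL2), DESeq2 called 1, and limma-voom called 0. The lines were not shown to differ from each other in any member. The joint test among D419G, D419N, and N421K called 0 of 10 members with edgeR, DESeq2, and limma-voom, against 2.39% of genes, and 2 members had an unadjusted p under 0.05, PMAIP1 (edgeR adjusted p = 0.267) and MCL1 (edgeR adjusted p = 0.140). For BCL2, the joint test gave an edgeR adjusted p of 0.946.

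**Figure D3:**
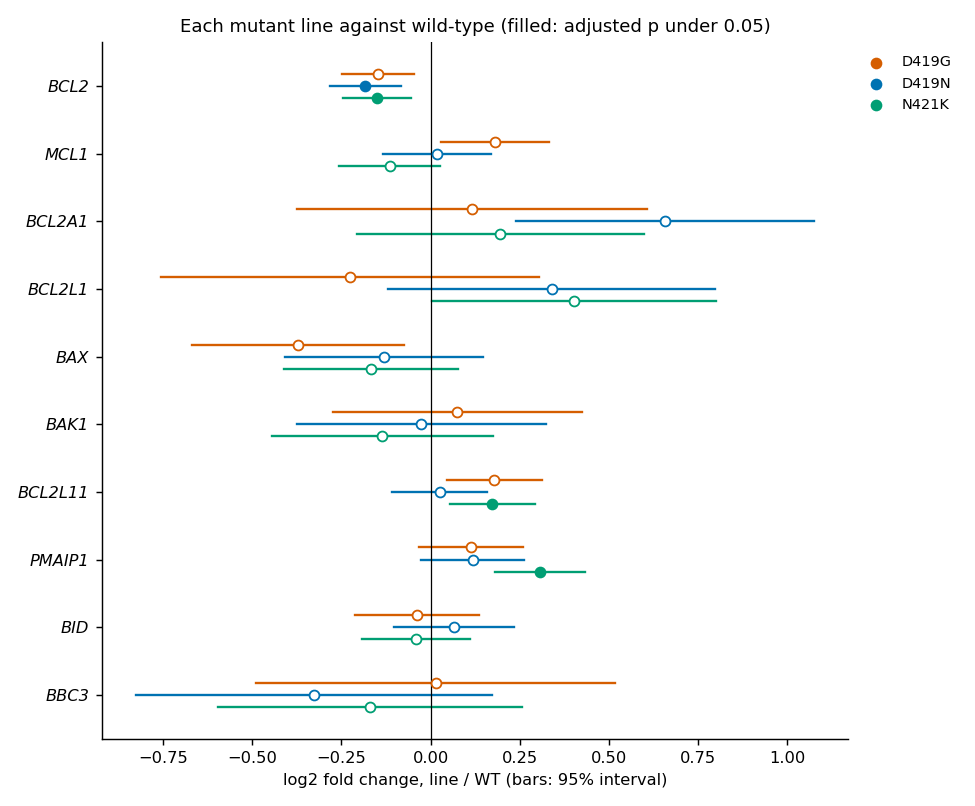
Log2 fold change of each mutant line over STAT6 WT for the 10 members (points) with its 95% interval (lines), across time points, with filled points at an edgeR adjusted p under 0.05. BCL2 lies between -0.18 and -0.15 in all 3 lines, and PMAIP1 is farthest from 0 in N421K (0.31).

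The second question was how the members change with time after the pulse. From 2 to 8 h, BCL2 rose while MCL1 fell in both genotypes, and the rarer BBC3 and BCL2A1 transcripts also fell. In STAT6 WT, 4 of 8 members tested were called between 8 h and 2 h (30.7% of 9142 genes), and in STAT6 MUT, 5 of 8 (34.1% of 9370 genes). In STAT6 WT, 15.2% of genes were higher and 15.6% lower, and in STAT6 MUT 17% and 17.1%.

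BCL2 rose in STAT6 WT from a median of 349 CPM at 2 h to 439 at 4 h and 501 at 8 h, with the lowest library at 8 h (451 CPM) above the highest at 2 h (389 CPM). Such a separation was found in 2.92% of genes in STAT6 WT and in 3.19% in STAT6 MUT. Between 2 h and 8 h, the log2 fold change was 0.53 ± 0.055 (1.45-fold; edgeR adjusted p = 9.46e-12). In STAT6 MUT, BCL2 rose from a median of 301 CPM to 402 and 470, again with no overlap between 2 h and 8 h, by a log2 fold change of 0.72 ± 0.063 (1.65-fold; edgeR adjusted p = 4.58e-14). Most of the rise fell between 2 h and 4 h, with log2 fold changes of 0.37 ± 0.056 in STAT6 WT (edgeR adjusted p = 1.32e-06) and 0.49 ± 0.063 in STAT6 MUT (3.15e-08). At that step, 4 of 8 members were called in each genotype (13% and 8.43% of genes), and BCL2 in STAT6 MUT did not overlap between 2 h and 4 h (0.8% of genes). From 4 h to 8 h, BCL2 was the 1 member of 8 called in STAT6 MUT (0.23 ± 0.062, edgeR adjusted p = 0.00902; 11.9% of genes), a call lost without replicate 1 (0.14, 0.338) or replicate 3 (0.22, 0.0702) of every line.

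MCL1 took the opposite course. Its STAT6 WT libraries spanned 189 to 272 CPM at 2 h (median 229), 112 to 181 CPM at 4 h (median 140), and 136 to 214 CPM at 8 h (median 158). All 9 libraries at 4 h lay below all 9 at 2 h, which was so for 1.07% of genes, with a log2 fold change of -0.62 ± 0.077 (edgeR adjusted p = 6.05e-09). Between 2 h and 8 h, it was -0.47 ± 0.075 (0.723-fold; edgeR adjusted p = 1.38e-06). In STAT6 MUT, the medians were 198, 155, and 165 CPM, and the log2 fold change of 8 h over 2 h was -0.32 ± 0.087 (edgeR adjusted p = 0.00289). This last value was -0.28 without replicate 3 of each line (edgeR adjusted p = 0.0578).

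BBC3 had the largest log2 fold change of the members tested in STAT6 WT. In STAT6 WT, its lowest, median, and highest levels were 3.11, 15.8, and 23.8 CPM at 2 h, 2.70, 6.39, and 11.8 CPM at 4 h, and 0.706, 3.41, and 5.56 CPM at 8 h. The levels at 8 h rest on few molecules, with 1 to 9 UMIs of BBC3 in a STAT6 WT library (median 2). All libraries but 1 at 2 h, STAT6 WT replicate 6 with 1 UMI of BBC3, lay above all libraries at 8 h. BBC3 fell by 2.32 on the log2 scale from 2 h to 8 h (-2.32 ± 0.26; 0.201-fold; edgeR adjusted p = 9.63e-11), and it was the 1 of 8 members called between 8 h and 4 h in STAT6 WT (-1.08 ± 0.33, edgeR adjusted p = 0.0363; 5.88% of genes), a call lost under 6 of 14 alternatives. In STAT6 MUT, the medians were 11.6, 6.98, and 4.91 CPM. There, BBC3 did not pass the count filter. With no filter, its log2 fold change of 8 h over 2 h was -1.53 ± 0.29 (adjusted p = 4.57e-06).

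BCL2A1 fell as well, from a median of 15.6 CPM at 2 h to 9.91 at 4 h and 3.39 at 8 h in STAT6 MUT, with a log2 fold change of 8 h over 2 h of -1.58 ± 0.29 (0.334-fold; edgeR adjusted p = 1.16e-05). In STAT6 WT, where it did not pass the filter, the medians were 10.6, 6.37, and 3.71 CPM, and the log2 fold change with no filter was -1.45 ± 0.26 (adjusted p = 1.62e-06). Libraries at 8 h held 0 to 10 UMIs of BCL2A1 in STAT6 MUT (median 5) and 0 to 18 in STAT6 WT (median 4). The count was 0 in D419N replicate 3, N421K replicate 2, and STAT6 WT replicate 4, which allows levels of up to 18.6, 15.7, and 5.96 CPM. N421K replicate 2 at 8 h also had 0 UMIs of BCL2L1. BCL2L1 did not pass the filter in either genotype. With no filter, its log2 fold change of 8 h over 2 h was -0.89 ± 0.27 in STAT6 WT (adjusted p = 0.0149) and -1.29 ± 0.28 in STAT6 MUT (adjusted p = 1.20e-04), from medians of 9.81 to 4.17 CPM and 11.9 to 4.91 CPM.

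The other members moved less. BAX fell in STAT6 WT between 2 h and 8 h by a log2 fold change of -0.45 ± 0.15 (edgeR adjusted p = 0.0133), from a median of 31.5 to 22.7 CPM, and in STAT6 MUT it changed by -0.17 ± 0.16 (0.446). PMAIP1 fell in STAT6 MUT, with a log2 fold change of -0.29 ± 0.086 (edgeR adjusted p = 0.00691) from a median of 129 to 106 CPM, and was at -0.03 ± 0.076 in STAT6 WT (0.821). Without replicate 2 of each line, the value of PMAIP1 in STAT6 MUT was -0.23 (edgeR adjusted p = 0.0786). BID rose in STAT6 MUT by a log2 fold change of 0.39 ± 0.10 (edgeR adjusted p = 0.00185), from a median of 52.3 to 66.3 CPM, beside 0.19 ± 0.095 in STAT6 WT (0.113). BAK1 did not pass in either genotype, with 0.40 ± 0.19 in STAT6 WT (0.0956) and 0.46 ± 0.21 in STAT6 MUT (0.0810). BCL2L11 did not pass the test, with log2 fold changes of 8 h over 2 h of -0.0010 ± 0.071 in STAT6 WT (95% interval -0.14 to 0.14) and 0.088 ± 0.082 in STAT6 MUT (95% interval -0.076 to 0.25). None of these differences between the genotypes passed the interaction test above.

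**Figure D4:**
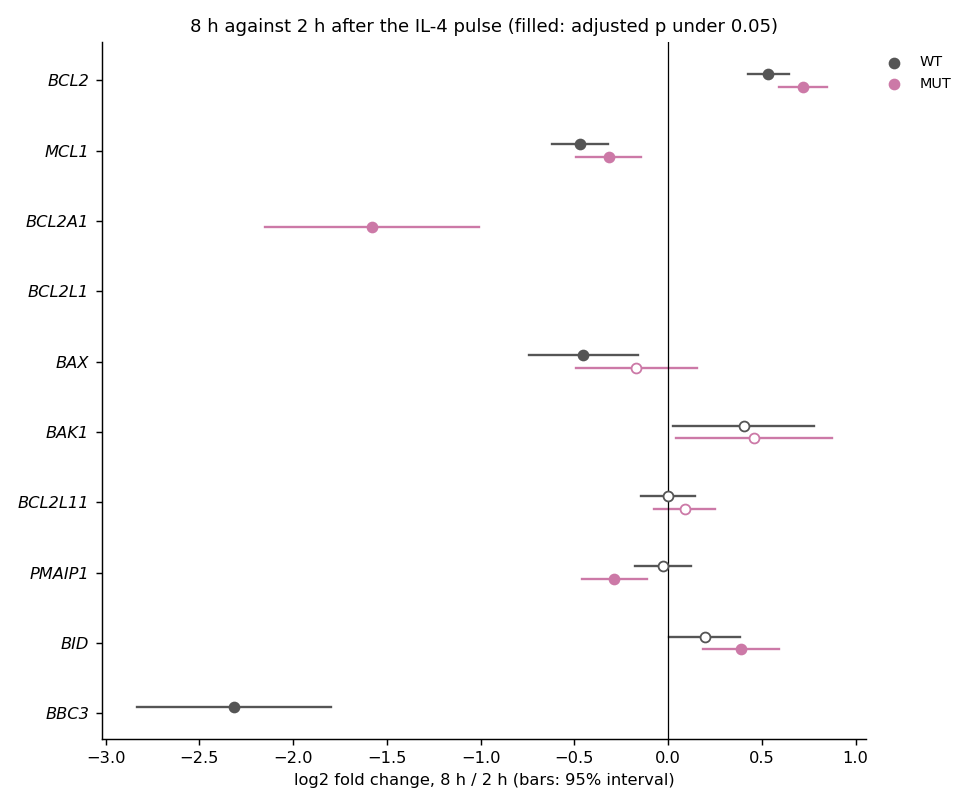
Log2 fold change of 8 h over 2 h after the IL-4 pulse for each member (points) in STAT6 WT and STAT6 MUT, with its 95% interval (lines) and filled points at an edgeR adjusted p under 0.05. BCL2 rose (0.53 and 0.72) and MCL1 fell (-0.47 and -0.32) in both genotypes, and members without a point did not pass the filter on low counts in that genotype.

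Other genes of the pathway were read from lists chosen with the members. Of 13 further BCL2 family genes, 8 were tested across time points, and 2 rose and 2 fell in STAT6 MUT relative to STAT6 WT (6.74% and 6.62% of all genes). HRK, a BH3-only gene, was lower, with a log2 fold change of -0.31 ± 0.049 (edgeR adjusted p = 9.59e-07), as was BIK, another BH3-only gene (-0.13 ± 0.045, 0.0371). BNIP3 and BNIP3L, mitophagy receptors with a BH3-like stretch, were both higher by a log2 fold change of 0.23 (SE 0.056 and 0.063; edgeR adjusted p = 0.00225 and 0.00732). Their calls were lost without replicate 2 of every line for BNIP3 (0.16, edgeR adjusted p = 0.0979) and without replicate 3 (0.19, 0.0663) or N421K (0.18, 0.160) for BNIP3L. The median over the 8 was 0.0032, beside 0.0012 over all genes.

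Of 15 genes of the apoptosome and caspases, 13 were tested, and 3 were lower in STAT6 MUT, against 6.62% of all genes. These were CASP2 (-0.23 ± 0.055), ENDOG (-0.22 ± 0.062), a mitochondrial nuclease gene, and HTRA2 (-0.21 ± 0.074), whose protein antagonizes inhibitors of apoptosis (edgeR adjusted p = 0.00145, 0.00842, and 0.0373). Of 6 inhibitors of apoptosis, 1 was called, against 13.4% of all genes. This was BIRC3, an NF-kB target (-0.15 ± 0.051, edgeR adjusted p = 0.0315). In the death receptor arm, edgeR called 0 of 5 genes tested across time points, and 2, the TRAIL receptor genes TNFRSF10A and TNFRSF10B (named after their values were seen), had an unadjusted p under 0.05. At 2 h alone, 1 of 5 was called, lower in STAT6 MUT, where 4.67% of all genes were called lower. Of 13 regulators of the members, all were tested and 3 were called, against the same 13.4%. BCL6, the germinal center repressor that represses BCL2 in normal germinal center cells, was higher (0.40 ± 0.042, edgeR adjusted p = 1.47e-12), as was FBXW7 (0.19 ± 0.055, 0.0111), which targets MCL1 protein for degradation, and MYC was lower (-0.17 ± 0.055, 0.0255). BIK, BIRC3, and HTRA2 are close to the threshold and lost their calls under 9, 7, and 8 of 23 alternatives, whereas BCL6 and HRK kept theirs under all 23. ENDOG, FBXW7, and MYC each lost theirs under 3 and CASP2 under 1. ENDOG was at -0.14 without replicate 1 of every line (edgeR adjusted p = 0.283) and at -0.18 without N421K (0.131). FBXW7 was at 0.16 without replicate 3 (edgeR adjusted p = 0.105) and at 0.13 without D419G (0.196). MYC was at -0.17 without replicate 2 (edgeR adjusted p = 0.0724), -0.11 without replicate 3 (0.231), and -0.13 without N421K (0.188). The median log2 fold change was -0.01 over the apoptosome and caspases, 0.056 over the inhibitors of apoptosis, 0.012 over the death receptor arm, and 0.040 over the regulators.

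Between 2 h and 8 h, the regulators mostly fell in STAT6 WT, where 8 of 13 were lower and 0 higher, and in STAT6 MUT 5 were lower and 1, MYC, was higher (15.6% and 17.1% of all genes were lower). BCL6 fell by a log2 fold change of -0.92 ± 0.054 in STAT6 WT (edgeR adjusted p = 5.68e-22) and of -0.97 ± 0.062 in STAT6 MUT (6.87e-19). BNIP3L fell by -1.02 ± 0.10 in STAT6 WT (edgeR adjusted p = 1.41e-12) and by -1.15 ± 0.11 in STAT6 MUT (3.07e-12).

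The genes most like each called member were sought by Pearson's r of mean log2 CPM over the 12 groups of line and time point, as a description over groups that share libraries and time trends. For BCL2, these were CIITA (0.977), PWWP3A (0.969), and STIP1 (0.964). For PMAIP1, they were RSRC2 (0.931), RASSF3 (0.914), and SERINC1 (0.907), and for BCL2L11, MMUT (0.887), NUFIP2 (0.858), and TXNIP (0.857). Each was picked as among the highest of the 9261 genes tested across time points. How high r would reach by chance over 12 groups was not worked out.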

How the data were processed

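The authors made prime-seq libraries, followed the Drop-seq workflow for the reads, and deposited raw UMI counts per gene and library, without normalization. Per the submitters' processing notes the genome build was hg38. Aligner and annotation: not given in the sources used here. Of 31835 identifiers, 30959 matched a symbol. Counts were tested with edgeR 4.0.16 (quasi-likelihood, TMM, filterByExpr, Benjamini-Hochberg over all genes tested, threshold 0.05) in R 4.3.3, with limma 3.58.1 and DESeq2 1.42.0 as alternatives. Models held time point and genotype, time point and line, or their interaction. Errors of log2 fold changes are standard errors derived from the F statistic. For some values, among them BID across time points, edgeR's test gave a larger p than that F implies. Their errors and intervals are narrower than the test. Exact permutation tests, two-sided, compared single members on log2 CPM with a prior count of 2. Tests were checked on simulated data with independent libraries and planted changes larger than the genotype differences of the members. Effects as small as those differences were not checked. Intervals cover 95% and, like limits for 0 counts (3 UMIs), counting and library error only. All 10 members are named, and from other lists at most the 5 genes with the smallest p across time points among those called, plus BMF, TNFRSF10A, and TNFRSF10B, named after their values were seen. One gene of these lists is not reported here. The members and lists were chosen with earlier results of these data known. Alternatives changed scaling, count filter, tool, covariates, and the libraries used. Figures were drawn with matplotlib.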

Additional observations from a re-analysis of the deposited data

Results flagged for a closer look

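In each of 60 groups (10 members, 2 genotypes, 3 time points, 9 libraries each), the most extreme library was compared with the others by Dixon's criterion on log2 CPM. For normal values of equal precision, chance alone meets it in about 1 group in 20. Libraries here differed in depth and several members had few UMIs, so that this rate need not hold. In 10 groups, 1 library stood apart. Of these 10 values, 8 were of STAT6 MUT, and 7 of those 8 were of D419G. STAT6 WT replicate 6 at 2 h (332236 UMIs) stood apart for BAX, with 56.0 CPM, and for BBC3, with 3.11 CPM. D419G replicate 2 at 2 h (299578 UMIs) stood apart for MCL1, with 306 CPM, and for BCL2A1, with 3.51 CPM. D419G replicate 3 at 4 h (175878 UMIs) stood apart for BID, with 90.1 CPM, and for BAX and BCL2A1, with 0 CPM each, where 0 UMIs allow a level of up to 17.1 CPM. D419G replicate 2 at 4 h (399227 UMIs) had 0 CPM of BCL2L1, which allows up to 7.51 CPM. D419N replicate 3 at 8 h, the shallowest library (161518 UMIs), had 41.1 CPM of BAX. D419G replicate 3 at 2 h stood apart for BCL2L1, with 5.04 CPM from 4 UMIs. Apart from the last, each of these libraries lay under 0.5 of the median total, and the part of depth in these values was not tested.

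The difference between STAT6 MUT and STAT6 WT itself differed between time points for BMF, a BH3-only gene outside the 10 members (interaction, edgeR adjusted p = 1.13e-04, kept under all 20 alternatives), and for MYC (edgeR adjusted p = 0.00105). Without N421K, the adjusted p of MYC was 0.0768, the highest of its 20 alternatives. From 2 h to 8 h, MYC rose in STAT6 MUT by a log2 fold change of 0.81 ± 0.090 (edgeR adjusted p = 1.66e-10), and in STAT6 WT the value was 0.17 ± 0.072 (0.0611).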

How the results depend on the processing

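BCL2 across time points kept its direction and its call under all 23 alternatives (log2 fold change -0.18 to -0.15), and PMAIP1 under 22 of 23 (0.12 to 0.24). Whether replicate numbers pair the libraries was not settled. The correlation of deviations from the group means was over 0.1 in 7 of 54 same-numbered pairs of lines at one time point (median 0.0020). Between time points of the same line, it was over 0.1 in 3 of 27 same-numbered pairs of STAT6 WT and 1 of 27 of STAT6 MUT. Pairs of unlike numbers were not examined beside them. With the number as a replicate block, 0 members were called at 2 h (BCL2 -0.21, adjusted p = 0.246), 0 in D419N, 1 in N421K, and 2 between 8 h and 4 h in STAT6 WT. Without the N421K line, 1 member was called across time points and 1 at 2 h. With no count filter, 0 were called in D419N and 1 in N421K. DESeq2 called 1 in D419G and 2 in D419N, and culture as a random effect 2 in D419N. Libraries that share line and replicate number were taken there as 1 culture, which the labels do not state. Between 8 h and 4 h, 2 were called in STAT6 WT with total counts only and with limma-voom, and 2 in STAT6 MUT with limma-voom, while between 4 h and 2 h, 2 were called in STAT6 MUT with total counts only. Leaving out each replicate number gave 0 to 2 calls in D419N, 1 to 3 in N421K, 2 to 4 between 4 h and 2 h in STAT6 WT and 1 to 2 in STAT6 MUT, and 0 to 1 between 8 h and 4 h in either genotype. Replicate numbers 4 to 9 held STAT6 WT libraries only. Between genotypes or lines, the block therefore compared STAT6 MUT with STAT6 WT of numbers 1 to 3. The causes of these changes were otherwise not tested, beyond the fewer libraries that leaving out leaves.

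Among the members, signs changed only for values that were not called. Across time points, MCL1 was at -0.00829 without the shallow libraries, -0.081 with the replicate block, and -0.054 without D419G. BAK1 was at 0.020 without N421K, and BID at 0.030 with the replicate block, 0.0015 without D419G, and 0.014 without N421K. At 4 h, BAX was at -0.041 with limma-voom, -0.37 with the replicate block, -0.029 with plate row as a covariate, -0.016 without D419N, and -0.12 without N421K, and PMAIP1 at 8 h was at -0.052 without N421K. Between 8 h and 2 h in STAT6 WT, BCL2L11 was at 0.033 with total counts only, 0.021 with no filter, 0.00050 with a mean count of at least 10, 0.00413 without shallow libraries, and 0.019 with the replicate block, and PMAIP1 was at 0.0068 with total counts only and 0.012 with the block. Leaving out replicate numbers gave ranges of -0.15 to 0.014 for BAK1, -0.064 to 0.031 for BID, and -0.28 to 0.0052 for BBC3 across time points, -0.058 to 0.15 for BAX at 4 h, -0.00970 to 0.11 for PMAIP1 at 8 h, -0.020 to 0.10 for BCL2L11 in D419N, and, between 8 h and 2 h in STAT6 WT, -0.031 to 0.030 for BCL2L11 and -0.053 to 0.029 for PMAIP1. With total counts only, the genes called higher and lower were 264 and 503 at 2 h (339 and 404 with TMM), 1707 and 1173 between 8 h and 2 h in STAT6 WT (1389 and 1422), and 2127 and 1216 in STAT6 MUT (1592 and 1601). Over all genes, the replicate block gave 638 calls in place of 1237 across time points, 212 in place of 743 at 2 h, 78 in place of 342 at 4 h, and 31 in place of 127 at 8 h. Without N421K, 586, 291, 93, and 74 genes were called there. Depth limits BAX, BAK1, BBC3, BCL2A1, and BCL2L1 most.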

Other observations

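BMF, a BH3-only gene outside the 10 members, was chosen after its values were seen. Its difference between STAT6 MUT and STAT6 WT itself differed between time points (interaction, edgeR adjusted p = 1.13e-04). The log2 fold change was -0.35 ± 0.12 at 2 h (edgeR adjusted p = 0.0423), -0.23 ± 0.11 at 4 h (0.288), and 0.52 ± 0.10 at 8 h (0.00171). The call at 2 h was lost under 10 of 21 alternatives and that at 8 h under 1, the replicate block (0.43, 0.387). BMF rose between 2 h and 8 h in STAT6 MUT by a log2 fold change of 1.04 ± 0.12 (edgeR adjusted p = 1.29e-10). In STAT6 WT, it rose by 0.47 ± 0.094 from 2 h to 4 h (edgeR adjusted p = 2.37e-04) and fell by 0.29 on the log2 scale from 4 h to 8 h (-0.29 ± 0.092, edgeR adjusted p = 0.0481), a call lost under 12 of 17 alternatives.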
